A study of Mus musculus with 87 samples.

Results

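The mouse genes Hoxb1, Hoxd1, Hoxa2, Hoxb2, Hoxa3, Hoxb3 and Hoxd3 belong to Hox paralog groups 1 to 3, the most 3′ genes of their clusters. These 7 of the 26171 gene symbols were read by name in each of 13 tables that compare RNA-seq libraries of Suz12-mutant cells, and all 7 were present in every table. Suz12 is a core subunit of the Polycomb repressive complex PRC2, and the series asks how alternative splicing of its exon 4 affects PRC2. In all, 32 RNA-seq samples of the line 129-B13 fell into 14 groups.

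Embryonic stem cells (ESC) were kept in 20% serum with LIF, and formed 8 groups. They were wild type (WT, 3 samples), cells whose Suz12 includes exon 4 constitutively (CSex4, 2), cells with exon 4 deleted (Deltaex4, 2), the full Suz12 knock-out (KO, 3), the knock-out rescued with the long isoform (KO-L, 2) or the short isoform (KO-S, 2), and the knock-out rescued from the Rosa26 locus with a long or short isoform that carries the 3D mutation at position 196 (KO-L3D and KO-S3D, 2 each). Neuronal precursors (NP) were made through embryoid bodies that received retinoic acid on day 4 and were harvested on day 8. They formed 6 groups: WT with 4 samples, and KO, KO-S, KO-L, CSex4 and Deltaex4 with 2 samples each, of the same genotypes as in ESC. The labels name neither clones nor separate cultures for the replicates, so the spread that the p-values measure may be technical. The deposited names of the comparisons hold the word paired. If the fit paired replicates, that spread is between pairs and not between all samples of a group.

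Hox genes encode homeodomain transcription factors that give cells their position along the head-to-tail axis, and the genes at the 3′ end of each cluster act in the hindbrain, the pharyngeal arches and the neck. Retinoic acid switches these genes on early, through receptors that bind elements near them. In pluripotent cells the clusters are textbook targets of PRC2, which places methyl groups on lysine 27 of histone H3 (H3K27me3) and keeps the genes silent.

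By RefSeq (GRCm38) the genes lie in 3 clusters. On chromosome 11 these are Hoxb1 (chr11:96365746-96368254), Hoxb2 (chr11:96351632-96354020) and Hoxb3 (chr11:96307101-96347930), on chromosome 2 Hoxd1 (chr2:74762980-74765142) and Hoxd3 (chr2:74711993-74748271), and on chromosome 6 Hoxa2 (chr6:52162417-52164831) and Hoxa3 (chr6:52169059-52213067). All 7 genes lay at deposited ChIP-seq regions of both Suz12 and H3K27me3. Each had a region of each kind within 2500 bp of the gene, against 12.2% of 20988 genes for Suz12 and 23.0% for H3K27me3. The region lists are the authors', in mm10, at a false discovery rate of 5% and for WT per the file headers. The value per region is the authors' own, and the headers do not say what it is. Hoxa2 and Hoxa3 shared 1 H3K27me3 region, chr6:52159116-52278545, which at 119430 bp covered both genes whole. Hoxb2 lay whole inside chr11:96318962-96360204, ranked 9 of 6882 by the authors' value, and the same region covered 71.0% of Hoxb3. The region at Hoxd3 with the best rank, 3 of 6882, was chr2:74720612-74758949, which covered 76.2% of the gene. Hoxb1 and Hoxd1, at the 3′ end of their clusters, lay whole inside narrower H3K27me3 regions of 17462 bp and 8398 bp. The Suz12 regions over them were 2976 bp and 3197 bp wide, and the one that Hoxa2 shared with Hoxa3 was 20938 bp wide. The median width in the lists was 2307 bp for Suz12 and 3144.5 bp for H3K27me3. The start sites of Hoxb1, Hoxd1, Hoxa2, Hoxa3 and Hoxd3 in RefSeq all fell inside regions of both kinds.

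Promoter sequences were read for 5 of the 7 genes from RefSeq (GRCm38.p6), and the 250 bases before the start site of 4 of them are printed here. Both marks cover these starts, and in NP Hoxd1 moved apart from Hoxb1, Hoxa2 and Hoxd3. The sequence of Hoxa3, whose start both marks also cover, is not printed. Hoxb2 and Hoxb3 had no entry in the promoter table. Sequences run 5′ to 3′ on the gene's own strand. Capitals mark the letters TGATNNAT, a form of the site that Hox and Pbx proteins bind together, AGGTCA, the core site of retinoic acid response elements, and TTTATG, a site of Cdx proteins, each searched on both strands.
Hoxb1, chr11:96365508-96365757, plus strand: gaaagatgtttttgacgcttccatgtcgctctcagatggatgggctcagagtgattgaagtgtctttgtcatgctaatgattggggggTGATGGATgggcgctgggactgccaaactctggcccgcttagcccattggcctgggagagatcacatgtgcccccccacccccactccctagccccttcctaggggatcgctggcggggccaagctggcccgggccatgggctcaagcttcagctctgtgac
Hoxd1, chr2:74762730-74762979, plus strand: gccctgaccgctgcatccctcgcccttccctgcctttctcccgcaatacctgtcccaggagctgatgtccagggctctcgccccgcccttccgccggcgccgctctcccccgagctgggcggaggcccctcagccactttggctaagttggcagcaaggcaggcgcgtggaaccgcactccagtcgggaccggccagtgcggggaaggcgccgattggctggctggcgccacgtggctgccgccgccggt
Hoxa2, chr6:52164832-52165081, minus strand: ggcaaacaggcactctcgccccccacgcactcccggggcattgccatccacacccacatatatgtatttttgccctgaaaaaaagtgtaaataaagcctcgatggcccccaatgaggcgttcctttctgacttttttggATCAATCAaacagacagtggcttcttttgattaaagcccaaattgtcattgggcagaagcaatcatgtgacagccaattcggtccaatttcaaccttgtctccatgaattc
Hoxd3, chr2:74711743-74711992, plus strand: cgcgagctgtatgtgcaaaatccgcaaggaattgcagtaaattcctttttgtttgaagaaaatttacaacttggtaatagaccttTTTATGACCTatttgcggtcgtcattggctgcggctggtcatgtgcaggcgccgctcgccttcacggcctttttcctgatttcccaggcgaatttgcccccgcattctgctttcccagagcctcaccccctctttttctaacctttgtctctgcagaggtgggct

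The letters TGATNNAT began 162 bases before the start of Hoxb1 and 111 bases before that of Hoxa2, and were found in 7.35% of 23272 promoters. In Hoxd3, TTTATG began 165 bases before the start and overlapped AGGTCA on the other strand, which began 161 bases before it. TTTATG was found in 10.1% and AGGTCA in 14.8% of promoters. None of the 5 promoters held GGTTCA, another core site (9.56% of promoters), nor a direct repeat of core sites with 2 or 5 bases between (0.0988% and 0.0602%). Over 300 bases, from 250 before to 50 after the start, the Hoxd1 promoter was the richest of the 5 in CpG, with 29 CpG and 69.7% GC. Hoxa3 and Hoxd3 had 20 CpG each, Hoxb1 had 10 and Hoxa2 had 9, against a median of 12 over all promoters.

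The tables hold a mean per gene, not sample values. The mean of low whole read numbers divided by size factors leaves a pattern that let the reads of each library be recovered, with 1 solution for each of the 7 genes in ESC and in NP. The libraries of a group are lettered here by size factor, from a, the largest, except that the NP WT libraries were lettered as 2 pairs, a and b and then c and d, of which c was the deepest of the 4. The letters are not the replicate numbers of the labels. Recovered reads describe the samples and were not tested. The share of all genes whose libraries lie apart between groups was not computed, so statements of overlap have no background. Calls are those of the deposited tables of the authors, made with DESeq2 per the submitters' processing notes, at an adjusted p below 0.05. The summed baseMean, the mean scaled reads of a library, lay between 26085140 and 31499803. Suz12 itself, the check of the labels, fell in the authors' deposited tables by 1.82 on the log2 scale (SE 0.22) in ESC KO and by 2.14 (SE 0.33) in NP KO. It was also lower than WT in ESC KO-L (-1.05, SE 0.28, adjusted p = 0.0143) and KO-S (-0.83, SE 0.27, adjusted p = 0.0345) in the authors' deposited tables. All 7 ESC tables share their WT libraries. In the 6 of them with 2 mutant libraries, genes with their 1 read in WT library a had a median log2 fold change between -0.23 and 0.06, against -1.53 to -1.21 for WT libraries b and c. Library a thus moved these fold changes less than b and c did. In the ESC KO table, with 3 libraries in each group, these medians were -0.96, -0.95 and -0.96 for WT libraries a, b and c. The deposited names of the comparisons hold the word paired, which points to a fit on paired replicates. The formula of the authors' fit and the pairs are not given in the sources used here. A paired fit would change what the fold changes and standard errors measure. In NP, WT libraries a and b serve as controls of KO, CSex4 and Deltaex4 alike, libraries c and d enter the WT vs KO table alone, and the 2 KO libraries enter 4 tables.

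In ESC the 7 genes were nearly silent, with 0 to 62 reads in a library, against 25 to 9089 in NP. Where genes overlap, reads may have been split or shared: by RefSeq, Hoxa3 spans Hoxa4, Hoxa5 and Hoxa6, Hoxb3 spans Hoxb4, Hoxd3 spans Hoxd4, and Hoxb2 overlaps Hoxb3os. In bulk RNA, fewer cells that express a gene and less RNA per cell cannot be told apart.

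The question in ESC was whether loss of Suz12 releases these genes, and 5 of the 7 rose in KO: Hoxd1, Hoxb2, Hoxa3, Hoxb3 and Hoxd3. Of all genes tested, 11.0% rose. The levels stayed low. Hoxd1, which acts in pain-sensing neurons, had 4, 4 and 7 reads in WT libraries a, b and c, and 62, 51 and 59 in KO. The KO libraries lay together, far above all WT libraries. Hoxd1 rose by 3.47 on the log2 scale in the authors' deposited table (SE 0.68, adjusted p = 1.07e-05), the smallest adjusted p of the 7.

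Of the group 2 genes, Hoxb2, which acts with Hoxb1 in the facial motor nucleus, had 2, 2 and 0 reads in WT and 37, 17 and 10 in KO. Hoxa2, which patterns the skeleton of the second pharyngeal arch, had 3, 2 and 1 reads in WT and 18, 11 and 13 in KO. Neither gene's WT and KO libraries overlapped. Hoxb2 rose by 3.97 in the authors' deposited table (SE 1.24, adjusted p = 0.0113). Hoxa2 had a log2 fold change of 2.80 (SE 1.17) there, with an adjusted p of 0.0770.

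In group 3, Hoxa3, which is needed for the thymus and parathyroid, had 2, 6 and 2 reads in WT and 35, 20 and 27 in KO. Hoxb3, a hindbrain gene, had 1, 2 and 3 reads in WT and 28, 18 and 19 in KO. Hoxd3, which patterns the first neck vertebrae, had no read in WT and 11, 9 and 13 in KO. For all 3 genes each KO library lay above each WT library. Hoxa3 rose by 3.07 in the authors' deposited table (SE 0.92, adjusted p = 0.00775), Hoxb3 by 3.38 (SE 1.06, adjusted p = 0.0123) and Hoxd3 by 5.82 (SE 1.89, adjusted p = 0.0158). The fitted value of Hoxd3 depends on how a group at 0 is treated. Against a floor of 3 reads over the WT group, Hoxd3 was at least 10.5-fold higher in KO. Without WT library b, which held 6 of the 10 WT reads of Hoxa3, the ratio of mean scaled reads of Hoxa3 moved from 7.81 to 12.7.

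Hoxb1, which sets the identity of the hindbrain segment that makes facial motor neurons, was the least clear of the 7 in ESC KO. It had 2, 1 and 1 reads in WT and 13, 5 and 0 in KO. The groups overlapped, and the log2 fold change in the authors' deposited table was 1.30 (SE 1.78, adjusted p = 0.691). Without KO library a, the ratio of mean scaled reads fell from 4.12 to 1.86.

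**Figure D1:**
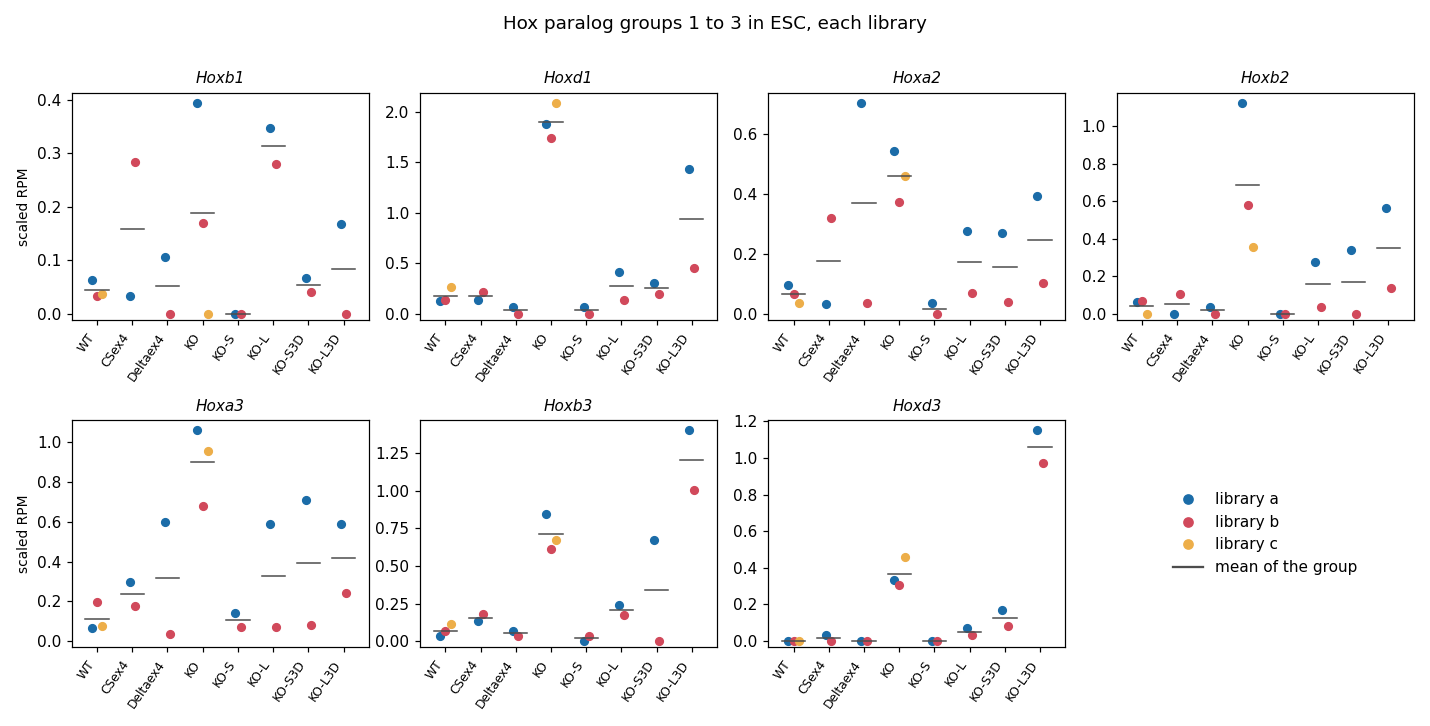
Scaled RPM (reads divided by the library's size factor, per 1000000 of the summed baseMean, vertical axis) of each gene in each ESC library, with 1 point per library and a line at the mean of the group. The 3 KO libraries lie above all WT libraries for each gene but Hoxb1, and KO-L3D libraries are the highest for Hoxb3 and Hoxd3.

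The rescues were compared with WT in the same way, and 1 of their 4 tables had a call. In KO-L3D, Hoxd3 had 41 and 28 reads, at least 30.2-fold above the floor of 3 reads over WT, and Hoxb3 had 50 and 29. Hoxd3 rose by 7.29 in KO-L3D in the authors' deposited table (SE 2.23, adjusted p = 0.0105), where 8.22% of genes rose. Hoxb3 had a log2 fold change of 3.71 there (SE 1.50, adjusted p = 0.0663), and Hoxd1 of 2.04 (SE 1.50, adjusted p = 0.380). The other 4 genes had no adjusted p in that table, as is the case where DESeq2 sets low genes aside. For Hoxd1, Hoxa2, Hoxb2 and Hoxa3, KO-L3D library a held most of the reads, with 51 and 13 for Hoxd1, 14 and 3 for Hoxa2, 20 and 4 for Hoxb2 and 21 and 7 for Hoxa3. Each of these 8 values lay above the WT libraries once scaled. Hoxb3 and Hoxd3 were thus high in both libraries, and the others mainly in library a. Suz12 itself was as low in the cells labelled KO-L3D as in KO: it fell by 1.85 on the log2 scale against WT in the authors' deposited table (SE 0.28). In that of KO-S3D it had -0.06 (SE 0.42, adjusted p = 0.974).

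The long-isoform rescue KO-L had 12 and 4 reads of Hoxd1, 8 and 1 of Hoxb2, 7 and 5 of Hoxb3 and 2 and 1 of Hoxd3. KO-S had 2 and 0 reads of Hoxd1, 0 and 1 of Hoxb3 and no read of Hoxb1, Hoxb2 or Hoxd3. KO-S3D had 9 and 5 reads of Hoxd1, 10 and 0 of Hoxb2, 20 and 0 of Hoxb3 and 5 and 2 of Hoxd3. In KO-S the 7 genes were thus at or below the WT range but for Hoxa3 (4 and 2 reads), within it. None of the 7 had an adjusted p in the authors' deposited tables of KO-L, KO-S or KO-S3D, and none had an unadjusted p under 0.05. Of all genes tested, 2.23%, 7.91% and 3.23% were called in these tables.

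With the exon 4 alleles the 7 genes had 0 to 20 reads in an ESC library. In CSex4, Hoxd1 had 4 and 6 reads, within its WT range. Hoxb3 had 4 and 5 reads, and both CSex4 libraries lay above all WT libraries, with a ratio of mean scaled reads of 2.26. Hoxb1 had 1 and 8 reads and Hoxa2 1 and 9. Without CSex4 library b the ratio to WT moved from 3.61 to 0.754 for Hoxb1 and from 2.71 to 0.509 for Hoxa2. In Deltaex4, Hoxd1 had 2 and 0 reads, below all WT libraries, with a ratio of 0.206. Hoxa2 had 20 and 1 reads in Deltaex4 and Hoxa3 17 and 1, so library a alone was high. Without it the ratio of mean scaled reads to WT moved from 5.68 to 0.560 for Hoxa2 and from 2.88 to 0.332 for Hoxa3. None of the 7 had an adjusted p in the authors' deposited table of CSex4, so none could be called, and 2.41% of the genes tested were. In that of Deltaex4, 6 of the 7 had an adjusted p from DESeq2 and none was called, as was none of all genes (0%). None of the 7 had an unadjusted p under 0.05 in either table.

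The differences between ESC tables were tested gene by gene, as the difference of the deposited log2 fold changes over its standard error, with adjustment over all genes of a pair. None of the genes tested passed in any of 7 pairs of ESC tables. All 7 were tested in 3 of the pairs, and 6 in the 4 pairs with KO-S or Deltaex4, where Hoxd3 had no fold change. Of all genes, 0.336% passed between KO-L and KO, 2.44% between KO-S and KO, 2.36% between KO-S and KO-L, 2.84% between KO-L3D and KO-L, 0.440% between KO-S3D and KO-S, 0.0395% between the 3D rescues and 0.0502% between Deltaex4 and CSex4. The lowest was that of Hoxd1 between KO-S and KO, by this test across all genes, with a difference of -6.49 (95% interval -12.21 to -0.76, adjusted p = 0.387). It was the 1 gene of the 7 with an unadjusted p under 0.05 in any of these pairs. The few WT reads enter both fold changes of a pair with KO, and the intervals span several log2 units. The rescues were not compared with KO directly in ESC, so a failure to pass here does not show that they are alike. Hoxd1 had 62, 51 and 59 reads in KO and 2 and 0 in KO-S, while Hoxb1 had 13, 5 and 0 in KO and no read in KO-S. These reads were not tested. The tables share WT libraries, and their standard errors were taken as if independent. Between ESC and NP, which share no library, no gene of the 7 passed for CSex4 (3.09% of all genes did) and none of the 6 tested for Deltaex4 (0.00512%), and none had an unadjusted p under 0.05.

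Markers of other lineages moved in the same ESC tables. In the authors' deposited KO table both neural crest markers (Sox10 and Foxd3), 2 of 3 trophoblast markers (Hand1 and Esx1) and 2 of 3 mesoderm markers (T and Eomes) rose. Of the 5 pluripotency markers, Nanog and Klf4 rose and none fell. None of 4 endoderm markers was called there by DESeq2, and none of 7 neural precursor markers, of which 4 had an adjusted p. Among these markers, Gata6 had an unadjusted p under 0.05 in the authors' deposited table (2.69, SE 1.37, p = 0.0492). In KO-L3D, all 3 trophoblast markers, led by Elf5 (log2 7.47), both neural crest markers, Eomes, Nanog and Klf4 rose in the authors' deposited table, and Pax6 fell. In KO-L, where none of the 7 genes had an adjusted p, T, Eomes, Hand1 and Esx1 rose. Whether cells of these lineages were present, and any part of theirs in the rise of the Hox genes, was not tested. The rest of the Hox family moved the same way: of 32 other Hox genes, 27 rose in ESC KO and 17 in KO-L3D, and none fell in either table. The largest rises among them in the authors' deposited tables were those of Hoxa11 in KO (log2 7.93, SE 1.79) and Hoxc9 in KO-L3D (7.57, SE 1.49).

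After retinoic acid and 8 days, 6 of the 7 genes were lower without Suz12. Hoxb1, Hoxa2, Hoxb2, Hoxa3, Hoxb3 and Hoxd3 fell in NP KO against WT, where 9.85% of genes fell, and Hoxd1 did not. Levels in NP are scaled RPM: reads divided by the size factor of the library, per 1000000 of the summed baseMean.

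Hoxd3 had 49.2, 191, 133 and 207 scaled RPM in NP WT libraries a, b, c and d, and 3.05 and 1.75 in KO. Every WT library was far above both KO libraries. In the authors' deposited table Hoxd3 fell by 5.40 on the log2 scale (SE 0.41, adjusted p = 1.10e-36), the largest change of the 7. Hoxb3 had 80.1, 275, 202 and 284 in WT and 28.5 and 14.0 in KO, and it fell by 2.89 in the authors' deposited table (SE 0.36, adjusted p = 6.11e-14). Hoxa3 had 54.6, 133, 102 and 144 in WT and 13.2 and 11.9 in KO, and it fell by 2.76 there (SE 0.40, adjusted p = 1.58e-10). None of the group 3 genes overlapped between WT and KO.

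Hoxa2 had 16.8, 34.6, 32.6 and 43.4 scaled RPM in NP WT and 3.84 and 1.83 in KO, and it fell by 3.17 in the authors' deposited table (SE 0.44, adjusted p = 2.45e-11). Hoxb2 had 54.3, 158, 152 and 177 in WT and 24.2 and 24.1 in KO, and it fell by 1.93 there (SE 0.42, adjusted p = 6.26e-05). The KO libraries of Hoxb2 were nearly equal, and both genes were apart from every WT library. Hoxb1 had 19.0, 11.5, 12.2 and 7.81 in WT and 5.26 and 0.974 in KO, and it fell by 2.64 in the authors' deposited table (SE 0.66, adjusted p = 0.000622). The Hoxb1 libraries did not overlap either, but its KO libraries differed from each other the most.

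Hoxd1 stood apart. It had 2.71, 6.98, 6.78 and 5.90 scaled RPM in NP WT and 9.52 and 9.19 in KO, so both KO libraries were above all 4 WT libraries. Its log2 fold change in the authors' deposited table was 1.10 (SE 0.55), with p = 0.0457 and an adjusted p of 0.150.

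The other pair of WT libraries gave the same calls against the same KO libraries. In the authors' deposited table of NP WT vs KO, the same 6 genes were higher in WT, where 15.6% of genes were, from 2.07 for Hoxb1 (SE 0.57, adjusted p = 0.00144) to 6.15 for Hoxd3 (SE 0.36, adjusted p = 7.15e-63). Hoxd1 had -0.55 there (SE 0.43, adjusted p = 0.352). Both KO libraries enter both tables, which are not independent. For Hoxb1 1 library sets the size: the ratio of KO to WT mean scaled reads was 0.206, and it was 0.0642 without KO library a and 0.348 without KO library b. For Hoxd3 the ratio was 0.0201, and it was 0.0493 without WT library b and 0.0126 without WT library a. Without WT library b the ratio moved from 0.228 to 0.449 for Hoxb2, from 0.134 to 0.232 for Hoxa3, from 0.120 to 0.268 for Hoxb3 and from 0.111 to 0.171 for Hoxa2. Without KO library a it moved to 0.0714 for Hoxa2 and 0.0791 for Hoxb3, and without WT library a to 0.0775 for Hoxb3. All of these kept KO below WT. For Hoxd1 the ratio moved from 1.94 to 3.48 without WT library b. In the table with the other WT pair, without KO library a, the ratio of WT to KO moved from 3.21 to 10.4 for Hoxb1, from 13.5 to 21.1 for Hoxa2 and from 11.5 to 17.6 for Hoxb3, and without KO library b to 1.90 for Hoxb1.

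**Figure D2:**
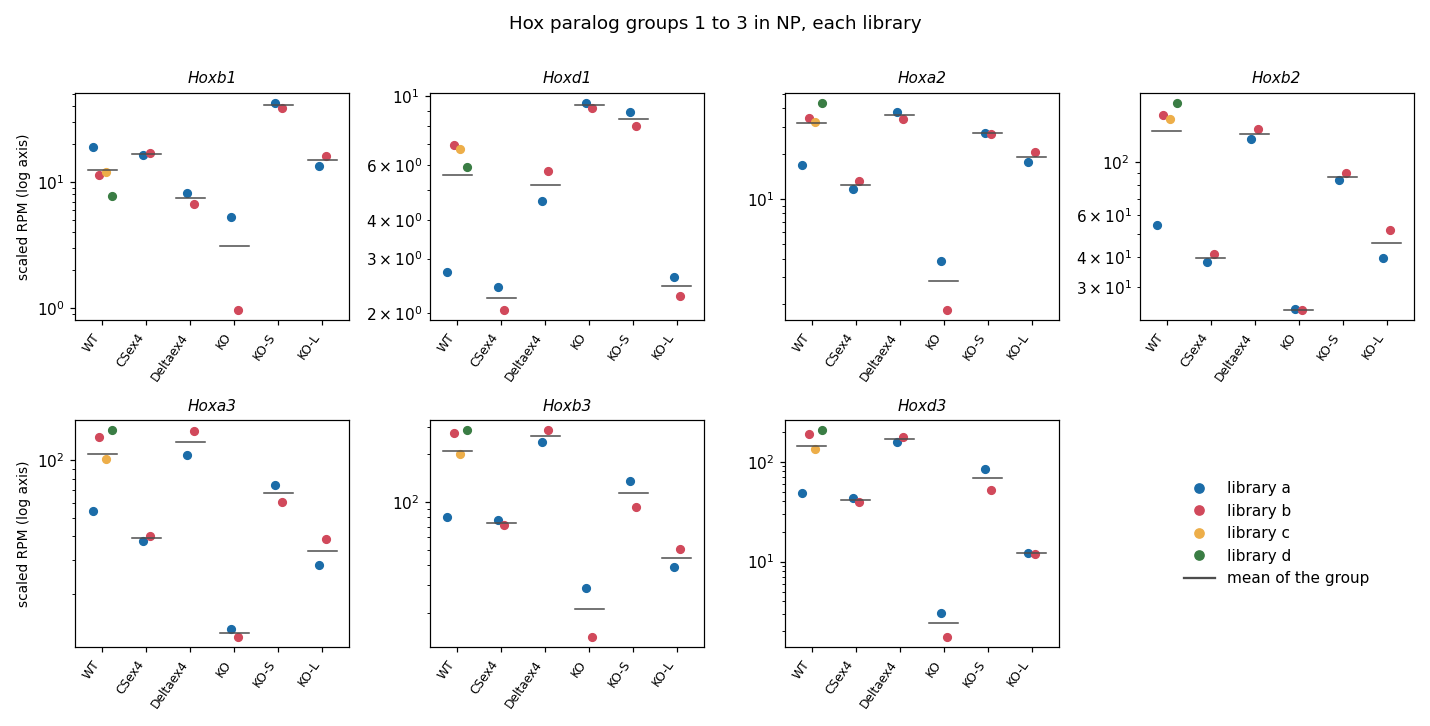
Scaled RPM (vertical log axis) of each gene in each NP library, with 1 point per library and a line at the mean of the group. KO is the lowest group for every gene but Hoxd1, for which it is the highest, and WT library a lies well below the other WT libraries for every gene but Hoxb1.

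The KO effect differed between ESC and NP for 5 of the 7 genes. The difference of the log2 fold changes, ESC minus NP, was 11.22 for Hoxd3 (95% interval 7.44 to 15.00, adjusted p = 5.46e-07), 6.27 for Hoxb3 (4.07 to 8.46, adjusted p = 1.83e-06) and 5.83 for Hoxa3 (3.87 to 7.78, adjusted p = 4.90e-07). It was 5.90 for Hoxb2 (3.34 to 8.46, adjusted p = 0.000211) and 5.98 for Hoxa2 (3.53 to 8.43, adjusted p = 7.02e-05). Over all 20188 genes tested, 9.65% passed. Hoxb1, at 3.94 (0.23 to 7.65, adjusted p = 0.212), and Hoxd1, at 2.36 (0.64 to 4.08, adjusted p = 0.0660), did not. The ESC and NP tables share no library.

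**Figure D3:**
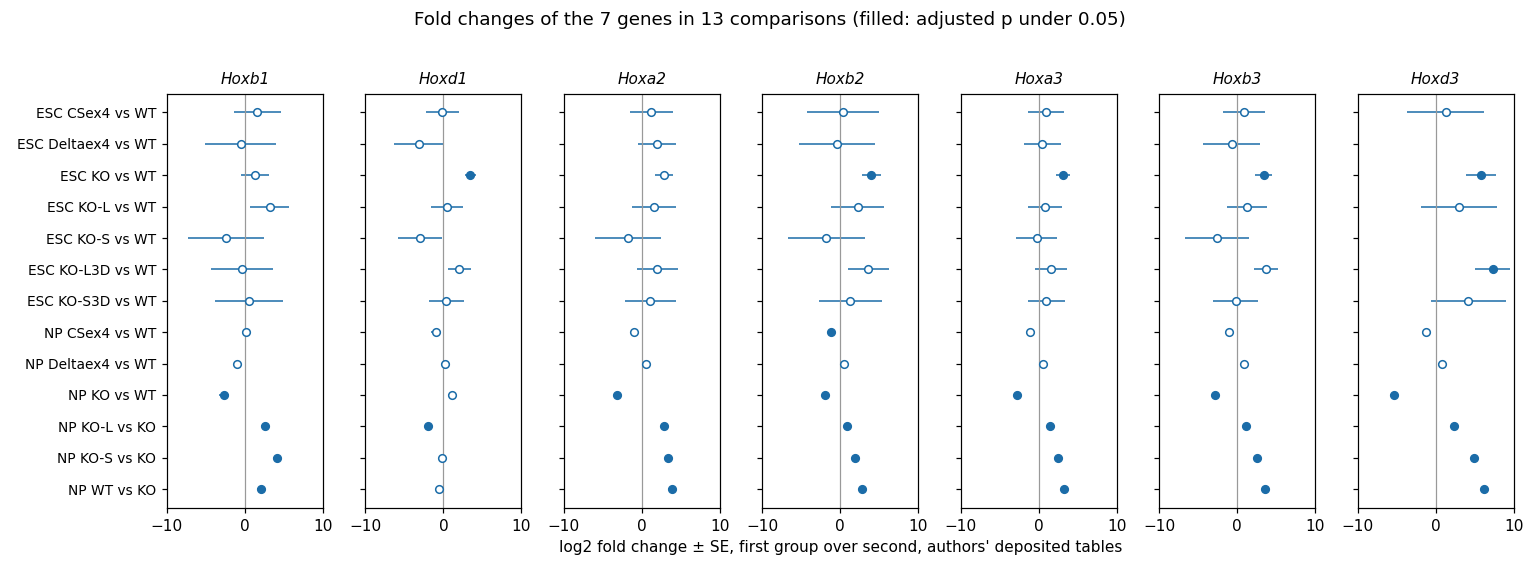
Log2 fold changes with standard errors (horizontal axis) of each gene in the 13 comparisons (vertical axis), from the authors' deposited tables, with filled points at an adjusted p under 0.05. In KO, 5 genes are filled to the right in ESC and 6 to the left in NP, and Hoxd1 is the gene that is not filled in NP KO.

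Both isoforms were put back into KO, and the NP rescues were compared with KO. The same 6 genes rose in KO-S, where 16.4% of genes rose, and in KO-L, where 10.9% rose. Hoxd1 fell in KO-L by 1.95 in the authors' deposited table (SE 0.44, adjusted p = 8.79e-05), where 13.8% of genes fell, and had -0.14 in KO-S (SE 0.34, adjusted p = 0.807).

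The 2 rescues differed in how far the genes rose. Hoxd3 had 85.2 and 52.5 scaled RPM in KO-S libraries a and b, and 12.1 and 12.0 in KO-L, while KO had 3.05 and 1.75. In the authors' deposited tables it rose by 4.86 in KO-S (SE 0.25, adjusted p = 1.68e-83) and by 2.36 in KO-L (SE 0.43, adjusted p = 4.68e-07). Hoxb3 had 135 and 93.6 in KO-S, against 38.9 and 50.4 in KO-L, and Hoxa3 had 74.3 and 60.5 in KO-S, against 28.5 and 38.6 in KO-L. For each group 3 gene, both KO-S libraries lay above both KO-L libraries, and both of those above KO.

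Hoxb2 had 83.9 and 90.3 scaled RPM in KO-S, against 39.9 and 52.1 in KO-L. Hoxa2 had 27.5 and 27.1 in KO-S, against 17.5 and 20.3 in KO-L. Hoxb1 had 42.6 and 39.0 in KO-S, above every WT library, and 13.5 and 16.3 in KO-L. Hoxd1 had 8.88 and 8.02 in KO-S, against 2.62 and 2.27 in KO-L, so KO-S lay just under KO (9.52 and 9.19) and KO-L below all WT libraries.

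The difference of the log2 fold changes, KO-S minus KO-L, passed for 5 of the 7 genes, against 7.03% of all genes. It was 2.50 for Hoxd3 (95% interval 1.53 to 3.46, adjusted p = 2.59e-05), 1.81 for Hoxd1 (0.72 to 2.90, adjusted p = 0.0209) and 1.36 for Hoxb3 (0.63 to 2.10, adjusted p = 0.00639). It was 1.04 for Hoxa3 (0.35 to 1.72, adjusted p = 0.0448) and 0.95 for Hoxb2 (0.35 to 1.56, adjusted p = 0.0332). Hoxb1, at 1.46 (0.13 to 2.79, adjusted p = 0.240), and Hoxa2, at 0.55 (-0.46 to 1.57, adjusted p = 0.825), did not pass. Both tables share the KO libraries. Leaving out 1 of these moved the rise of Hoxb1 the most: its ratio to KO in KO-S was 13.2, and 42.1 without KO library a and 7.84 without KO library b. In KO-L the ratio of Hoxb1 was 4.76, and 15.1 and 2.83 without these libraries. Without KO library a the ratio in KO-S moved from 9.72 to 15.0 for Hoxa2 and from 5.43 to 8.19 for Hoxb3, and in KO-L from 6.64 to 10.2 and from 2.09 to 3.14.

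With exon 4 always included (CSex4), 1 of the 7 genes fell in NP, where 1.45% of genes fell. Hoxb2 had 38.3 and 41.2 scaled RPM in CSex4, against 54.3 and 158 in WT libraries a and b of that table. It fell by 1.23 in the authors' deposited table (SE 0.40, adjusted p = 0.0434). The call was lost with p-values adjusted over all genes with a p (adjusted p = 0.0593). Hoxa3 (-1.13, SE 0.38, adjusted p = 0.0530) and Hoxd3 (-1.23, SE 0.42, adjusted p = 0.0536) were next in the authors' deposited table. Hoxa2 had 11.5 and 13.1 in CSex4, Hoxa3 38.1 and 40.2, Hoxb3 76.6 and 71.2, Hoxd3 43.3 and 39.7, and Hoxd1 2.42 and 2.05. For these genes and Hoxb2, both CSex4 libraries lay below all 4 WT libraries. The share of all genes that separate this way was not computed. Hoxb1 had 16.4 and 17.0 in CSex4, within its WT range, and a log2 fold change of 0.17 (SE 0.39, adjusted p = 0.950) in the authors' deposited table.

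1 WT library decides how large these CSex4 differences are. WT library a was 2.91-fold below WT library b for Hoxb2, 3.88-fold below it for Hoxd3 and 3.43-fold below it for Hoxb3. The CSex4 values were close to library a: their mean was 0.732 of library a for Hoxb2 and 0.252 of library b. Without WT library b the ratio of CSex4 to WT moved from 0.373 to 0.729 for Hoxb2, from 0.414 to 0.713 for Hoxa3, from 0.414 to 0.919 for Hoxb3 and from 0.344 to 0.840 for Hoxd3. It moved from 0.476 to 0.729 for Hoxa2 and from 0.459 to 0.821 for Hoxd1. Without WT library a it was 0.267 for Hoxb3 and 0.216 for Hoxd3. For Hoxb1, which was higher in WT library a than in the other WT libraries, the ratio went from 1.09 to 0.874 without WT library b.

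With exon 4 deleted (Deltaex4), none of the 7 genes was called by DESeq2 in NP in the authors' deposited table, and 0.0809% of all genes were. Hoxb1 (-0.98, SE 0.45, p = 0.0294) and Hoxb3 (0.83, SE 0.41, p = 0.0456) had an unadjusted p under 0.05 in the authors' deposited table, with an adjusted p of 1.00 each. Of all genes with a p, 1.90% had an unadjusted p under 0.05 there. Hoxb2 had 125 and 137 scaled RPM in Deltaex4 and Hoxd3 157 and 178, inside their WT ranges. The same holds for Hoxa2, with 37.6 and 34.2, and Hoxd1, with 4.61 and 5.75. Hoxa3 had 106 and 143 and Hoxb3 238 and 284, in the upper part of the WT values. Hoxb1 had 8.20 and 6.72, at and below the low end of its WT range. Without WT library a the ratio of Deltaex4 to WT changed side of 1 for Hoxd1, Hoxb2, Hoxa3, Hoxb3 and Hoxd3, for example from 1.41 to 0.891 for Hoxd3. Without WT library b it rose to 3.42 for Hoxd3 and 3.28 for Hoxb3.

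The difference between the alleles in NP, Deltaex4 minus CSex4, was not passed by any of the 7 genes, against 1.22% of all genes. It was 2.03 for Hoxd3 (95% interval 0.84 to 3.23, adjusted p = 0.0618) and 1.68 for Hoxa3 (0.66 to 2.70, adjusted p = 0.0801). The genes with an unadjusted p under 0.05 by this test were Hoxa2, Hoxb2, Hoxa3, Hoxb3 and Hoxd3. The share of all genes at that unadjusted threshold was not computed, and the 1.22% is at an adjusted p under 0.05. The 2 tables share the same WT libraries a and b, so the spread between these libraries enters both.

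In the order of NP levels, Deltaex4 and WT came first for each gene of groups 2 and 3 and overlapped each other, KO-S was next, and KO was last. For all 5 of these genes WT library a lay below both KO-S libraries, so WT and KO-S did not separate. CSex4 and KO-L took the places between KO-S and KO, and overlapped for Hoxb2 and Hoxa3. Hoxb1 had the order KO-S, CSex4, KO-L, WT, Deltaex4, KO, with WT overlapping its neighbours. Hoxd1 had the order KO, KO-S, WT, Deltaex4, KO-L, CSex4, and within it WT overlapped Deltaex4 and KO-L overlapped CSex4.

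Markers of cell state moved with these levels. The summed level of 4 neural precursor markers whose reads were recovered (Sox1, Pax6, Hes5 and Fabp7) was 130, 260, 373 and 349 scaled RPM in NP WT libraries a, b, c and d. In KO-S it was 154 and 162, in KO 21.8 and 35.0 and in KO-L 25.4 and 34.0. CSex4 had 81.9 and 81.0 and Deltaex4 336 and 439. WT library a was thus the lowest WT library for these markers as well as for groups 2 and 3. Hes5 had 2 and 1 reads and Fabp7 1 and 4 reads in KO, against 635 to 3290 and 634 to 5604 in WT, while Sox1 had 299 and 621 in KO. The near-equal sums of KO and KO-L hide opposite changes. In KO-L, Hes5 had 84 and 83 reads, Fabp7 191 and 264 and Sox1 88 and 90. In the authors' deposited table of NP KO-L vs KO, 5 of 7 neural precursor markers rose, with Fabp7 the most (6.66), and Sox1 fell by 2.18. None of the recovered markers was at 0 in an NP library.

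The summed level of 5 pluripotency markers (Pou5f1, Nanog, Zfp42, Esrrb and Klf4) was 305, 119, 61.1 and 63.1 in NP WT libraries a, b, c and d. CSex4 had 1029 and 1049 and Deltaex4 224 and 119. In KO it was 303 and 107, in KO-L 745 and 507 and in KO-S 126 and 103. The groups with the highest sums, CSex4 and KO-L, were those between KO-S and KO for the Hox genes of groups 2 and 3. Pou5f1, Nanog, Zfp42 and Esrrb were each highest in these groups. Klf4 went against them, with 14.9 and 18.2 scaled RPM in CSex4 and 11.2 and 13.4 in KO-L, against 56.1 and 52.0 in KO. It fell in NP KO-L against KO by 2.15 in the authors' deposited table (SE 0.25). WT library a had the highest sum of the WT libraries. In NP KO against WT, by the authors' deposited table, 6 of 7 neural precursor markers fell, while 3 of 4 endoderm markers (Gata6, Gata4 and Foxa2), 1 of 3 trophoblast markers (Elf5, by 3.12) and 1 of 5 pluripotency markers (Klf4) rose. With the other WT pair the shift was wider. In the authors' deposited table of NP WT vs KO, the same 6 neural precursor markers were higher in WT, and 4 of 5 pluripotency markers (Pou5f1, Zfp42, Esrrb and Klf4), all 3 trophoblast markers, the same 3 endoderm markers and Eomes, a mesoderm marker (-3.35), were higher in KO. The part of cell composition in the Hox differences was not tested.

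**Figure D4:**
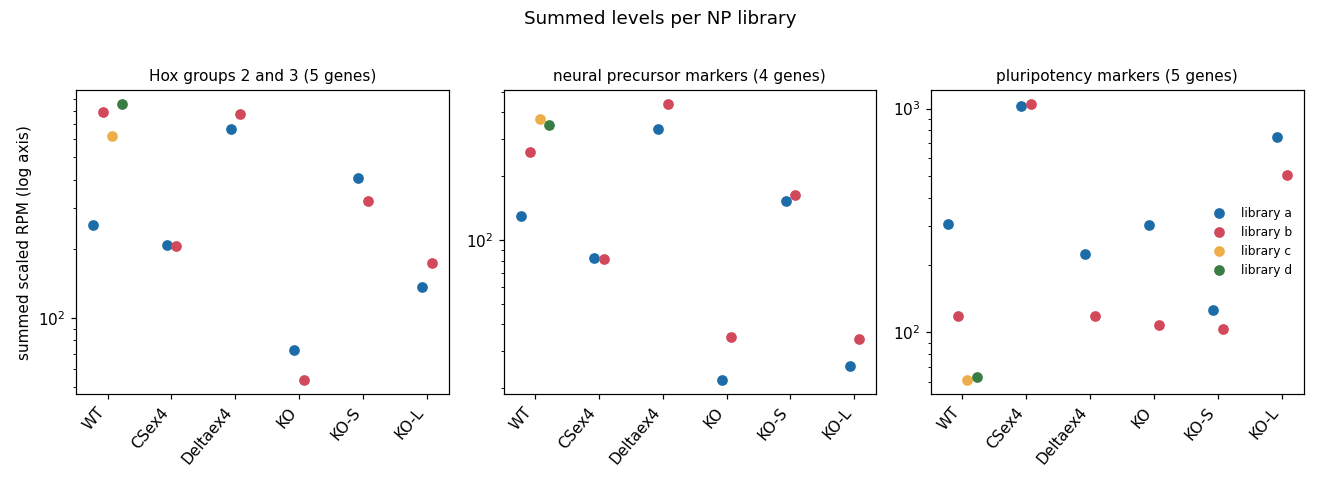
Summed scaled RPM (vertical log axis) in each NP library for the 5 Hox genes of groups 2 and 3 (left), 4 neural precursor markers (centre) and 5 pluripotency markers (right). WT library a is the lowest WT library on the left (255, against 621 to 855) and in the centre, and the highest on the right.

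The proteins that act with or upstream of these Hox genes were read from lists of 9 cofactors and 14 regulators. Cofactors of the Pbx, Meis and Prep families bind DNA together with Hox proteins. In ESC KO, 3 of 9 rose and none fell in the authors' deposited table, led by Meis2 (log2 3.21, SE 0.29, adjusted p = 2.00e-25). In NP KO, 3 of 9 fell and none rose, with Pknox2 among those that fell. Pknox2, which encodes a Prep-family cofactor, rose in ESC KO by 2.17 (SE 0.30, adjusted p = 2.37e-11) and fell in NP KO by 2.36 (SE 0.41, adjusted p = 2.11e-07) in the authors' deposited tables. In NP CSex4, Meis1, Meis2 and Pknox2 fell. Against KO, 4 cofactors rose and 1 fell in NP KO-L, and 5 rose and none fell in KO-S.

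Of the 14 regulators, 4 rose in ESC KO in the authors' deposited table and 2 fell, Rara and Gbx2. Those that rose were Cdx1 and Cdx2, which switch on Hox genes of the trunk (4.24, SE 0.39 and 1.90, SE 0.59), Aldh1a2 (1.30, SE 0.41) and Rxra (0.77, SE 0.22). In NP KO, 3 of 14 rose, Cdx2 and Aldh1a2 among them, and none fell. Aldh1a2 encodes the enzyme that makes retinoic acid in the embryo, and rose in NP KO by 1.69 in the authors' deposited table (SE 0.50, adjusted p = 0.00489). The retinoic acid receptor genes Rara, Rarb and Rarg rose in NP KO-S against KO, by 0.69, 0.41 and 0.50 in the authors' deposited table. Epha4, which encodes an ephrin receptor of hindbrain segments, rose in ESC KO by 0.88 (SE 0.28, adjusted p = 0.0118) and fell in NP CSex4 by 1.24 (SE 0.34, adjusted p = 0.00957) in the authors' deposited tables, with 0.34 (SE 0.37) in NP KO.

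The other Hox genes split in NP by their place in the clusters, and those next to the 7 genes moved the same way. Of the 32, 14 rose and 13 fell in NP KO in the authors' deposited table. All 10 genes of groups 4 to 6 fell, with a median log2 fold change of -2.64. Of the 9 genes of groups 7 to 9, 4 rose and 3 fell, and of the 12 genes of groups 10 to 13, 10 rose and none fell, with a median of 5.88. The fall in NP KO was thus shared with groups 4 to 6. The largest rise was that of Hoxc12 (8.00, SE 1.96) and the largest fall that of Hoxa6 (-5.01, SE 0.46). In NP CSex4, 7 of the 32 fell and none rose, all of them among the 10 genes of groups 4 to 6, with the largest fall for Hoxc5 (-1.87, SE 0.31). The median log2 fold change in NP KO was -2.76 for the 7 genes and -0.01 for all genes tested.

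Across the 6 NP tables, which share libraries, the log2 fold changes of the 6 genes other than Hoxd1 went together, with Pearson's r from 0.785 (Hoxb1 and Hoxb2) to 0.996 (Hoxa3 and Hoxb3). Those of Hoxd1 ran against each of them, with r from -0.622 to -0.347. These are descriptions over 6 points. Over all 13 tables, which share libraries too, the gene outside the family most like Hoxb2 and also most like Hoxb3 was Slit2 (r = 0.960 and 0.958 over 13 comparisons), of 13577 genes with a baseMean of at least 10 in every table. The most like Hoxb1 was Rpp30 (0.941), Hoxd1 Hspa2 (0.874) and Hoxa3 4933430I17Rik (0.932). The next were Rgma for Hoxb2 (0.934), Mllt3 for Hoxb3 (0.932), Snrpd3 for Hoxb1 (0.922), Glrb for Hoxd1 (0.866) and Gjc1 for Hoxa3 (0.927). For Hoxd3 the measure could not be computed, since 2 ESC tables in which it had no read give it no fold change.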

How the data were processed

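RNA-seq and ChIP-seq of Suz12-mutant mouse cells were deposited as 13 tables of comparisons and 2 lists of regions. Per the file headers, each deposited table gives for 26171 genes the mean scaled reads (baseMean, a signal), the log2 fold change, its standard error, a score (that ratio) and a p-value, plain and adjusted. The submitters' processing notes name TopHat, DESeq2, Bowtie and DiffBind, without versions. The annotation and the strand setting are not given in the sources used here. No sample values came with the tables, so the authors' test was used as deposited and no count test was fitted. The deposited region lists carry a score per region.

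Whole reads per library were recovered from baseMean, with 1 solution for 100% of 17948 low genes, and linked across tables into 32 libraries. They are a description, with no test. On simulated data 30 of 30 genes were recovered in each of 3 tables. The intervals given are for differences between tables, and were computed from the deposited standard errors of both log2 fold changes. Differences between tables were tested as z values over all genes, with Benjamini-Hochberg adjustment. In simulated data with a log2 difference of 3 for 200 of 14631 genes (ESC KO minus NP KO), 84% were recovered and 4% of calls were false.

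The 7 genes, Suz12, called regulators and cofactors, the extreme other Hox genes and the 2 genes most like each member were named; some of these are not reported here. Members and lists were chosen with earlier results of these data known. Alternatives were thresholds of 0.01 and 0.10, filters on baseMean (10 and 100), a minimum log2 fold change of 1, region windows of 0 and 10000 bp and, added after seeing the data, leaving out each library. Python 3.11.15, numpy 2.4.6, pandas 2.3.3, scipy 1.17.1 and matplotlib 3.10.9 were used.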

Additional observations from a re-analysis of the deposited data

Results flagged for a closer look

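The effect of the Suz12 knock-out differed between ESC and NP for 5 of the 7 genes, by the test of the difference itself. The difference of the log2 fold changes, ESC minus NP, was 5.98 for Hoxa2, 5.90 for Hoxb2, 5.83 for Hoxa3, 6.27 for Hoxb3 and 11.22 for Hoxd3. The fitted ESC value of Hoxd3 has a WT group with no read.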

How the results depend on the processing

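At an adjusted p under 0.01, 2 of the 7 genes rose in ESC KO in place of 5, none rose in KO-L3D in place of 1, none fell in NP CSex4 in place of 1, and 2 in place of 5 passed the difference of NP KO-S and KO-L. At 0.10, 2 rose in KO-L3D and 3 fell in NP CSex4. With p-values adjusted over all genes with a p, none fell in NP CSex4 (Hoxb2 adjusted p = 0.0593). Among genes with a baseMean of at least 10 in both tables, 1 passed the difference of NP Deltaex4 and CSex4, in place of 0. In these alternatives fewer or more genes are tested or the threshold moves. The other 53 settings of these counts kept them within 1.5 times, and no result reversed. Leaving out a library, chosen after seeing the data, moved 97 ratios of mean scaled reads by over 1.5 times or across 1. No paired analysis was possible because the tables hold no sample values, so the authors' fit could not be rerun with or without a replicate block or without a library. In ESC the depth, 0 to 62 reads per gene and library, limits what can be seen.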
